A study of Mus musculus and Homo sapiens with 12 samples.

Results

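The CD1 genes encode relatives of MHC class I molecules that pair with beta-2-microglobulin and present lipids, in place of peptides, to T cells. CD1A, CD1B and CD1C (group 1) sit at the cell surface and sample lipids in different endosomes, CD1D (group 2) presents lipids to natural killer T cells, and CD1E stays inside the cell, where it helps load lipids in lysosomes. In the human thymus, group 1 CD1 proteins mark immature cortical thymocytes, and CD1D on double-positive thymocytes selects natural killer T cells. Mice have no group 1 genes, and Cd1d1 is their main CD1 gene.

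The family was taken as every gene of the human table named CD1 plus one letter from A to E, together with Cd1d1 in the mouse table. This gave 5 of 11513 human genes and 1 of 10430 mouse genes, that is 6 of 21943 in both tables. All 6 passed the level needed for testing, a mean of at least 1 FPKM (reads scaled by gene length and library depth) over the libraries of their table. The family was chosen by its measured fall in the human comparison described here, that is by these FPKM values, so the human CD1 values are a description and carry no test.

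The human libraries came from KOPTK1, an established T-cell acute lymphoblastic leukaemia (T-ALL) line, given the solvent DMSO or the gamma-secretase inhibitor Compound E for 72 h, with 2 libraries each. Gamma-secretase releases the active part of NOTCH receptors, so the inhibitor (gSI) stops NOTCH signalling. The mouse libraries came from NOTCH-delta E driven T-ALL in secondary C57BL/6 recipients, sorted from spleen by the GFP that marks the leukaemic cells after 3 weeks on a diet with 8 (the control), 0.8, 0.4 or 0 g/kg valine. Each diet had 1 library named TALL2 and 1 named TALL3, and neither the meaning of these names nor the age of the mice is given in the labels. The labels for the 0.8 and 0.4 diets also state valine in drinking water, at the same figures per litre. Nothing in the labels says that libraries of a group came from separate cultures or animals, so the p-values measure only the spread between these libraries. Recovered reads over the listed genes ran from 22939478 to 42245079 per human library and from 14222895 to 37687253 per mouse library. HES1, a direct NOTCH target, was at 6.72 and 6.18 FPKM with DMSO and at 0.0253 and 0.0431 FPKM with gSI, in the direction that the treatment label implies.

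Summed over the 5 human genes, CD1 mRNA was at 159.7 and 149 FPKM in the DMSO libraries and at 15.5 and 14.5 FPKM in the gSI libraries. The means were 154 ± 7.40 FPKM (SD, n = 2) and 15.004 ± 0.732 FPKM (SD, n = 2), so the gSI level was 9.71% of the DMSO level. All 5 genes were lower in both gSI libraries than in both DMSO libraries. Among the 6679 human genes tested, 42.4% were lower and 33.9% higher without overlap, and nothing is read from the count of 5 because this contrast chose the family. In bulk RNA, fewer cells that make a transcript and less of it in each cell cannot be told apart.

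CD1E carried most of the family's RNA. It was at 109 and 101 FPKM with DMSO (9633 and 10535 reads) and at 7.79 and 7.49 FPKM with gSI (974 and 1372 reads). Both gSI libraries were far under both DMSO libraries, and replicates of each group lay close together. The mean went from 105 ± 6.30 to 7.64 ± 0.211 FPKM (SD, n = 2), which is 13.7-fold lower, or 12.9-fold to 14.6-fold over the 4 pairings of a DMSO with a gSI library. With DMSO, CD1E (ENSG00000158488) ranked 59 of 11513 genes by FPKM, and with gSI it ranked 1264.

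CD1B, the group 1 molecule that loads long-chain lipids in late endosomes and lysosomes, was second in level. Its values were 35.4 and 35.0 FPKM with DMSO (2730 and 3215 reads) against 3.25 and 2.77 FPKM with gSI (356 and 444 reads). The group means of CD1B (ENSG00000158485) were 35.2 ± 0.272 and 3.01 ± 0.342 FPKM (SD, n = 2), an 11.7-fold drop with a range over pairings of 10.8-fold to 12.8-fold. CD1B moved from rank 219 to rank 3256 by FPKM. CD1E and CD1B were thus over 10-fold lower in every pairing of libraries.

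CD1A, the group 1 molecule that recycles through early endosomes and the classical marker of cortical thymocytes, was at 8.35 and 7.38 FPKM with DMSO and at 1.39 and 1.55 FPKM with gSI. Its mean was 7.87 ± 0.692 FPKM with DMSO and 1.47 ± 0.112 FPKM with gSI (SD, n = 2). That is a 5.35-fold drop for CD1A (ENSG00000158477), between 4.76-fold and 6.00-fold over pairings. The CD1A reads were 743 and 781 with DMSO and 176 and 287 with gSI, so the low gSI level still rested on over 100 reads per library.

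CD1C, which samples both early and late endosomes, was at 4.73 and 4.56 FPKM with DMSO (391 and 449 reads) and at 1.89 and 1.498 FPKM with gSI (222 and 258 reads). The means of CD1C (ENSG00000158481) were 4.64 ± 0.119 and 1.69 ± 0.276 FPKM (SD, n = 2), a 2.74-fold drop that ranged from 2.41-fold to 3.15-fold. CD1A was the higher of these genes in both DMSO libraries. With gSI their order differed between replicates, CD1C being the higher in replicate 1 and CD1A in replicate 2.

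CD1D, the group 2 member, was the lowest of the family in every library and moved least. It was at 1.71 and 1.70 FPKM with DMSO (182 and 215 reads) and at 1.20 and 1.18 FPKM with gSI (182 and 262 reads). The means of CD1D (ENSG00000158473) were 1.70 ± 0.00941 and 1.19 ± 0.0146 FPKM (SD, n = 2), a drop of 1.43-fold with a range of 1.41-fold to 1.45-fold. CD1D kept 70.0% of its DMSO level, against 36.5% for CD1C, 18.7% for CD1A, 8.54% for CD1B and 7.27% for CD1E. The order of retained level followed the order of DMSO level in reverse for CD1D, CD1C, CD1A, CD1B and CD1E.

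**Figure D1:**
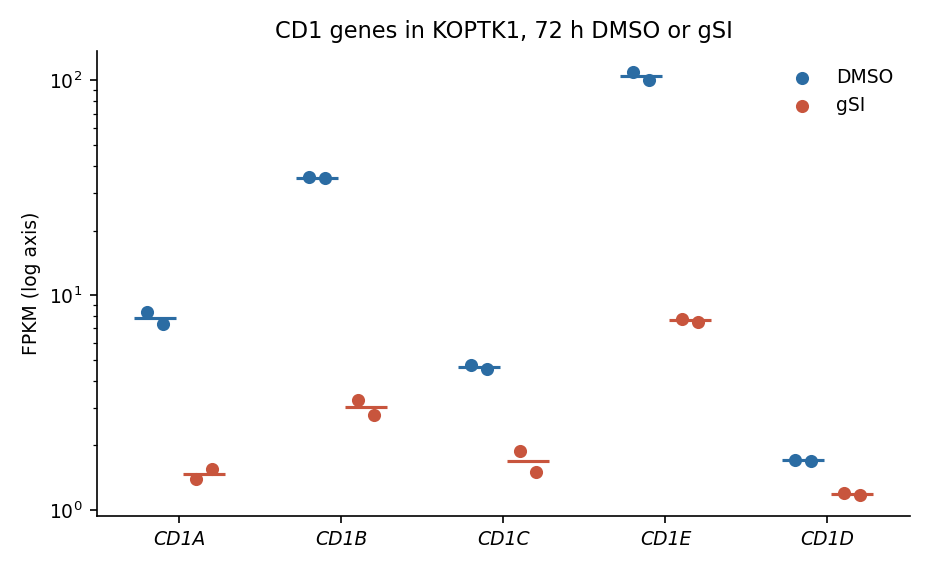
FPKM (log axis) of each CD1 gene in the 2 DMSO and 2 gSI libraries of KOPTK1; points are libraries and bars are group means. The gap between the colours is widest for CD1E (105 against 7.64 FPKM) and CD1B (35.2 against 3.01 FPKM) and narrowest for CD1D (1.70 against 1.19 FPKM).

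Because the genes fell by different amounts, the make-up of the family's RNA shifted. CD1E supplied 68.5% and 67.4% of the summed CD1 FPKM in the DMSO libraries and 50.2% and 51.7% in the gSI libraries. CD1B stayed between 19.1% and 23.5% in all 4 libraries. The minor members took larger shares with gSI: CD1A went from 5.23% and 4.94% to 8.97% and 10.7%, and CD1C from 2.96% and 3.05% to 12.2% and 10.3%. CD1D, at 1.07% and 1.14% of the sum with DMSO, reached 7.75% and 8.16% with gSI. These shares compare the genes per length, and the lengths recovered from the table were alike, at 3580 bp for CD1B, 3844 bp for CD1C, 4089 bp for CD1E, 4132 bp for CD1A and 4949 bp for CD1D.

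**Figure D2:**
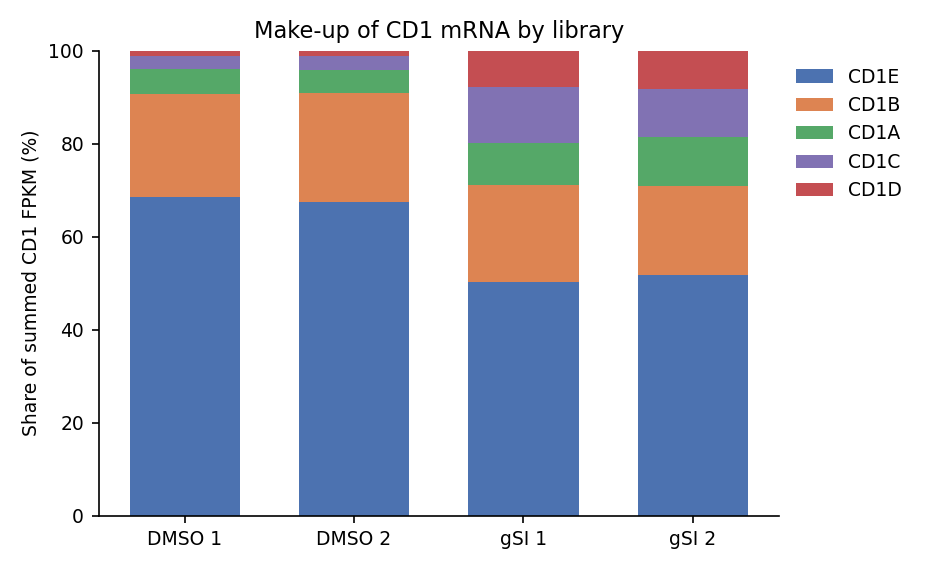
Share of the summed CD1 FPKM (%) that each CD1 gene supplied in each KOPTK1 library, stacked to 100. CD1E falls from 68.5% and 67.4% with DMSO to 50.2% and 51.7% with gSI, and the shares of CD1A, CD1C and CD1D are larger in both gSI libraries.

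On the log2(FPKM + 1) scale used for all genes, the differences (gSI minus DMSO) were -3.62 for CD1E, -3.18 for CD1B, -1.84 for CD1A, -1.07 for CD1C and -0.30 for CD1D. This scale shrinks the change of low genes, so the folds above are larger than it implies. Ranked by size of fall among the 6679 tested genes, CD1E was number 2, CD1B 4, CD1A 25, CD1C 66 and CD1D 1168. By the plain ratio of means, the same genes ranked 7, 9, 28, 63 and 761. Falls of at least 3 on the log2 scale were made by 4 genes (0.0599%), 2 of them CD1E and CD1B. At least 1 was reached by 76 genes (1.14%), among them CD1A and CD1C, and CD1D was not in that group. CD1 genes are compact: the median recovered length of human genes was 29957 bp, and levels per length rank long genes low, so rank by FPKM depends on length.

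**Figure D3:**
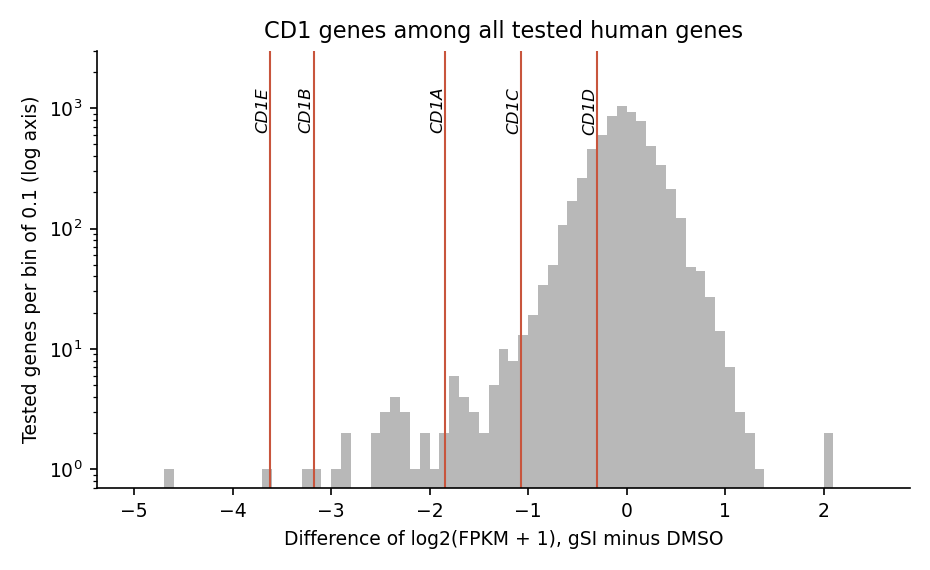
Number of tested human genes (log axis) by difference of log2(FPKM + 1), gSI minus DMSO, in bins of 0.1, with lines at the 5 CD1 genes. CD1E (-3.62) and CD1B (-3.18) lie at the far left end, and CD1D (-0.30) lies within the main body of genes.

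The tested genes whose profiles over the 4 libraries lay nearest to CD1B, by Euclidean distance of log2(FPKM + 1) after subtracting each gene's mean, were DUSP6 (0.167), GIMAP7 (0.327), a gene listed only as ENSG00000211829 (0.333), HES1 (0.365) and CD1E (0.453). DUSP6, a phosphatase that switches off ERK kinases, went from 18.5 ± 1.73 to 1.11 ± 0.00980 FPKM (SD, n = 2). GIMAP7, a GTPase of lymphocytes, went from 54.8 ± 4.46 to 6.33 ± 0.302 FPKM (SD, n = 2). For CD1E the nearest were DUSP6 (0.412), CD1B (0.453), GIMAP7 (0.695), ENSG00000211829 (0.733) and HES1 (0.770). With 4 libraries in 2 groups, this likeness is mostly the size of the fall on the log2(FPKM + 1) scale, and it is given as a description. It does not mean a like fold: HES1, low with DMSO, went from 6.45 to 0.0342 FPKM, and adding 1 shrinks its fall.

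Cortical thymocyte identity was checked with 19 other genes, since the family is best known from that stage. Of these, 15 were listed and 10 tested, and RAG2 and PTCRA were not analysed here. RAG1, the recombinase subunit of cortical thymocytes, was at 0.0772 and 0.0691 FPKM with DMSO, and DNTT, the polymerase that adds bases at receptor gene joints, at 0.959 and 0.709 FPKM. CD4 was at 0.625 and 0.501 FPKM and CD8A at 3.34 and 2.99 FPKM with DMSO. Other genes of the list were higher with DMSO, among them CXCR4, a chemokine receptor, at 82.3 and 76.7 FPKM, and CCR9, another, at 5.88 and 5.54 FPKM. CXCR4 and CCR9 are named after their values were seen. RAG1, DNTT and CD4, with means under 1 FPKM, were not tested. These levels are per recovered length, which is long for many human genes, and they are not set against those of the CD1 genes.

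Among the 10 tested cortical genes, 6 fell, 1 rose and 3 did not pass (limma, adjusted p under 0.05), with a median log2 difference of -0.23 against -0.03 over all genes. Over all tested genes, 53.1% passed, 30.3% being lower and 22.8% higher. With quantile scaling that split turned, to 1849 lower and 1986 higher. With no filter on level, 9 of the 15 listed cortical genes fell and 2 rose, and 5374 of 11513 human genes passed. SH2D1A, the signalling adaptor that natural killer T cell development needs, fell from 12.5 ± 1.61 to 7.33 ± 0.363 FPKM (SD, n = 2; log2 difference -0.69, limma adjusted p = 1.33e-07). TOX, a nuclear factor of thymocyte selection, fell by 0.35, and CD38, a surface enzyme of immature lymphocytes, fell by 0.33 on the log2 scale. ELOVL4, a fatty acid elongase, rose from 2.98 ± 0.174 to 4.22 ± 0.108 FPKM (SD, n = 2). CD8A fell from 3.16 ± 0.242 to 2.55 ± 0.0336 FPKM (SD, n = 2), a call that was lost without DMSO replicate 1, gSI replicate 1 or gSI replicate 2 (adjusted p = 0.0549, 0.129 and 0.102). Fewer cortical genes fell without DMSO replicate 1 (9 tested, median log2 difference -0.17) or without either gSI library (10 tested, median -0.22 each). The count over all genes also dropped in these runs.

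Pan-T genes also moved: 8 of 10 tested fell, 2 did not pass, and the median log2 difference was -0.40. Over all tested genes 30.3% fell and 22.8% rose. CD3D, a chain of the CD3 complex, went from 122 ± 0.969 to 48.8 ± 5.41 FPKM (SD, n = 2; log2 difference -1.30, limma adjusted p = 1.66e-12), and the kinase LCK fell by 0.56. LMO2, a progenitor gene, fell by 1.20 on the log2 scale, and it was the only tested gene of its list of 12. Of 4 tested genes of mature thymocytes, 3 fell, led by the egress receptor S1PR1 with a log2 difference of -1.06. With no filter on level, 6 of the 9 listed genes of mature thymocytes fell and 2 rose, where 5374 of 11513 human genes passed in either direction. The fall of CD1E and CD1B in log2 units was larger than that of every tested gene of the cortical, pan-T, progenitor and mature lists. That is a statement of size with no test, and nothing is read from it because this contrast chose the family by its fall.

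Transcription factors that bind CD1 promoters or act in cortical thymocytes made up a list of 19, of which 16 were listed and 13 tested. Of these 11 fell, none rose and 2 did not pass, with a median log2 difference of -0.31. Over all tested genes 30.3% fell and 22.8% rose. With no filter on level, 11 of the 16 listed factors fell and 1 rose, where 5374 of 11513 human genes passed in either direction. MYB, a factor of proliferating thymocytes, fell from 23.02 ± 1.83 to 8.39 ± 0.226 FPKM (SD, n = 2; log2 difference -1.35, limma adjusted p = 1.2e-13). TCF7 and LEF1, partner factors of the WNT pathway in thymocytes, fell from 52.6 ± 3.49 to 29.7 ± 0.462 FPKM and from 8.12 ± 0.646 to 4.80 ± 0.122 FPKM (SD, n = 2). BCL11B, which fixes T lineage choice, fell by 0.59 on the log2 scale. TCF12 and TCF3, the E proteins of double-positive thymocytes, had smaller differences of -0.22 and -0.26. The TCF12 call was lost without gSI replicate 2 (adjusted p = 0.0967) and the TCF3 call without gSI replicate 1 (adjusted p = 0.147).

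All 6 tested NOTCH target genes of a list of 9 fell, against 30.3% of all tested genes, with a median log2 difference of -2.44. HES4 had the largest at -4.63, and HES1 (-2.85), DTX1 (-2.52) and NOTCH3 (-2.36) followed. MYC, the growth regulator downstream of NOTCH1 in T-ALL, went from 16.6 ± 0.799 to 4.75 ± 0.00221 FPKM (SD, n = 2). CD1E and CD1B lay within the range of these genes, which was wide, from -4.63 for HES4 to -0.36 for NOTCH1. Nothing is read from that, because this contrast chose the family by its fall.

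The machinery that assembles, loads and moves CD1 molecules mostly rose or did not pass. Of 26 genes, 24 were listed and 18 tested: 11 rose, 2 fell and 5 did not pass. Over all tested genes 22.8% rose and 30.3% fell. The median log2 difference was 0.17 against -0.03 over all genes. LAMP1, a lysosomal membrane protein, rose from 4.93 ± 0.322 to 7.46 ± 0.153 FPKM (SD, n = 2; log2 difference 0.51, limma adjusted p = 3.2e-06). AP2M1, an adaptor subunit that takes tyrosine-motif cargo such as CD1B into endocytic vesicles, rose by 0.36 on the log2 scale. The chaperone CANX, which folds new CD1 heavy chains, rose by 0.32. Fewer of these genes rose without gSI replicate 1 (6) or without gSI replicate 2 (5), and the count over all genes also dropped there.

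B2M, the light chain that all surface CD1 and MHC class I molecules share, was at 234 and 226 FPKM with DMSO and at 188 and 191 FPKM with gSI. Its mean went from 229.8 ± 5.86 to 189.7 ± 1.78 FPKM (SD, n = 2), a log2 difference of -0.28 with limma adjusted p = 0.00807. The direction turned with quantile scaling (0.066), and the call was lost without DMSO replicate 1 (adjusted p = 0.0812), so no direction is given for B2M. Of 8 tested MHC class I and related genes, TAP1 rose by 0.24, FCGRT fell by 0.23 and 6 did not pass, with a median log2 difference of -0.02. Over all tested genes 53.1% passed. The TAP1 call was lost without either gSI library and the FCGRT call without gSI replicate 1 (adjusted p = 0.0761, 0.161 and 0.110).

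**Figure D4:**
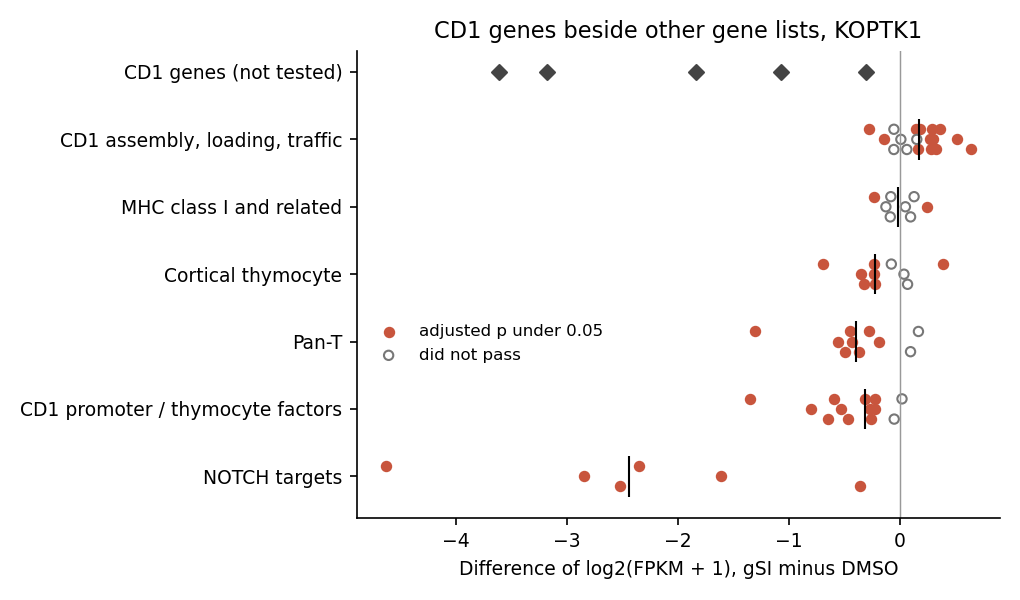
Difference of log2(FPKM + 1), gSI minus DMSO, for the 5 CD1 genes and for the tested genes of 6 lists in KOPTK1; filled points passed limma (adjusted p under 0.05), open points did not, and black lines are list medians. The assembly list has its median at 0.17, the transcription factors at -0.31 and the NOTCH targets at -2.44.

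Markers of other cell types, some of which carry CD1, were also listed for this line. None of 14 macrophage and dendritic cell genes, 10 MHC class II genes, 7 neutrophil genes or 6 erythroid genes was in the human table used here. Of 10 B-cell genes 3 were listed, and their summed level was 15.9 and 15.6 FPKM with DMSO against 4.55 and 5.03 FPKM with gSI. CR2, the complement receptor, went from 5.45 ± 0.0518 to 0.345 ± 0.00579 FPKM (SD, n = 2; log2 difference -2.26), and CD79A, a chain of the B-cell receptor that some T-ALL cells also make, from 9.41 ± 0.0925 to 3.81 ± 0.376 FPKM (SD, n = 2; log2 difference -1.12). Both passed limma (adjusted p = 4.48e-21 and 3.39e-12), where 30.3% of all tested genes fell and 22.8% rose. KOPTK1 is an established T-ALL line, so they are given as transcripts of that line, and their relation to the CD1 values was not tested. Of 3 tested genes of natural killer T cell selection, SH2D1A fell, FYN rose by 0.20 and 1 did not pass, against the same shares over all genes. SH2D1A was also counted in the cortical list. FYN lost its call without gSI replicate 1 or gSI replicate 2 (adjusted p = 0.0810 and 0.0873).

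In the mouse, Cd1d1 (ENSMUSG00000028076) lies on the minus strand of chromosome 3, from 86995834 to 86999441 in the GRCm38 annotation. The length implied by its FPKM values is 1946 bp, which is the length of its transcript ENSMUST00000029717.3. A near copy, Cd1d2, lies beside it at 86986551 to 86989780 on the plus strand, is annotated as a polymorphic pseudogene and was not analysed here. Of 1007 aligned coding bases of Cd1d1, 975 (96.8%) are the same in Cd1d2. In the coding part, 400 of 959 stretches of 50 bases (41.7%) occur unchanged in Cd1d2, against 0 of 140 in the 5′ UTR and 40 of 700 (5.71%) in the 3′ UTR. Reads from the shared stretches could have been given to either gene or dropped, so the Cd1d1 level is uncertain to that extent. The 60 coding bases below show how closely the copies match where they differ most: they lie in exon 3, chr3:86998226-86998285 on the minus strand of GRCm38, read 5′ to 3′, and capitals mark the 8 bases that differ between the genes.
Cd1d1: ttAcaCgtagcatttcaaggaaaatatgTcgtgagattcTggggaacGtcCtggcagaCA
Cd1d2: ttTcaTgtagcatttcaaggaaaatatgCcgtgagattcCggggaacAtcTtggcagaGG

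Cd1d1 was detected in all 8 leukaemia libraries. The control diet gave 8.16 and 8.13 FPKM in TALL2 and TALL3, in that order here and in what follows (346 and 262 reads). At 0.8 g/kg valine the values were 8.01 and 7.09 FPKM (258 and 367 reads), and at 0.4 g/kg they were 6.01 and 8.83 FPKM (463 and 300 reads). Without dietary valine they were 8.09 and 8.95 FPKM (304 and 252 reads). The lowest value was that of TALL2 at 0.4 g/kg and the highest that of TALL3 at 0 g/kg, and only the 0.8 g/kg group lay wholly under the controls. Among all 9943 tested mouse genes, 22.5% were likewise lower without overlap at 0.8 g/kg and 10.6% higher. At 0.4 g/kg, where Cd1d1 overlapped the controls, these shares were 31.8% and 16.9%.

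Group means were 8.15 ± 0.0268, 7.55 ± 0.653, 7.42 ± 1.995 and 8.52 ± 0.615 FPKM (SD, n = 2) from 8 down to 0 g/kg. Cd1d1 passed the test in no diet. Against the control, the log2 difference was 0.06 at 0 g/kg (95% interval -0.37 to 0.49, limma adjusted p = 0.934). It was -0.14 at 0.4 g/kg (95% interval -0.57 to 0.29, limma adjusted p = 0.824) and -0.10 at 0.8 g/kg (95% interval -0.53 to 0.33, limma adjusted p = 0.998). The slope per step of falling valine was 0.01 (95% interval -0.11 to 0.14, limma adjusted p = 0.942). These intervals leave room for differences of up to 0.57 in log2 units, downward at 0.4 g/kg, so the values do not show that the diets are alike. The test called 0 of 9943 genes (0%) in each of these 4 comparisons. Before adjustment, limma's threshold of 0.05 was passed by 1025 genes at 0 g/kg, 1059 at 0.4 g/kg, 433 at 0.8 g/kg and 1220 for the slope, and Cd1d1 was in none of these sets.

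**Figure D5:**
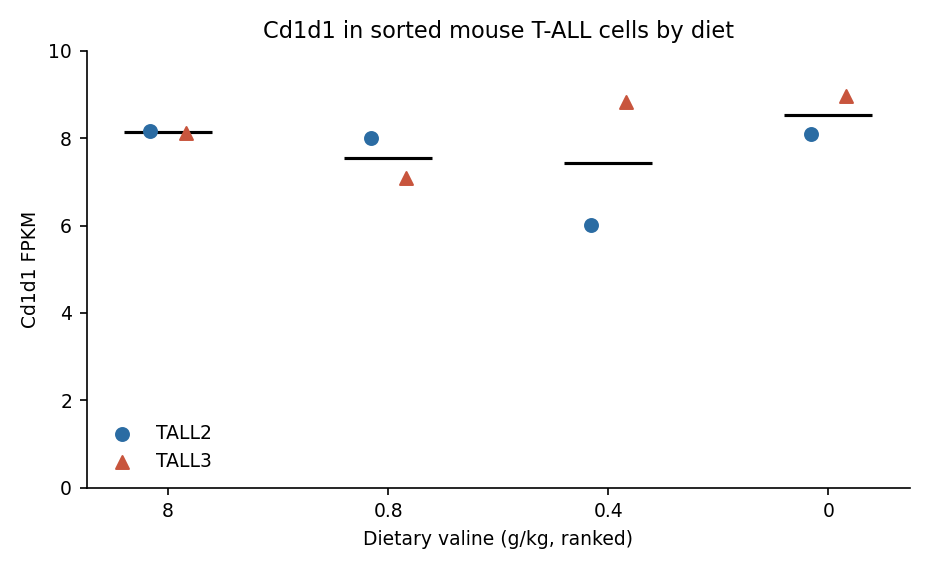
Cd1d1 FPKM in each mouse library by dietary valine (g/kg, ranked, not to scale), with TALL2 as circles, TALL3 as triangles and group means as lines. The 8 values run from 6.01 to 8.95 FPKM, and the wider gap at 0.4 g/kg lies between its own replicates.

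Over the 8 libraries Cd1d1 averaged 7.91 ± 0.955 FPKM (SD, n = 8), which ranked 6875 of 10430 listed genes. Its coefficient of variation was 12.1%, and the median of tested genes was 12.6%. Counting error alone at its mean read number gives 5.60%. The genes most like Cd1d1 over the 8 libraries by Pearson r of log2(FPKM + 1) were Cmtr2 (0.971), Ddit4 (0.941), Mxd1 (0.941), Sirt6 (0.928) and Ftl1 (0.922). Ddit4, an inhibitor of mTORC1, ran from 54.3 to 111 FPKM, and Cmtr2, an mRNA cap methyltransferase, from 5.43 to 7.41 FPKM. These r values are the highest among 9943 genes over 8 libraries that share diets, and they are a description.

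Genes on either side of Cd1d1 on chromosome 3 were at a range of levels. The 5 nearest listed genes were Fbxw7, Gatb, Rps3a1, Lrba and Dclk2 at lower coordinates and Etv3, Arhgef11, Sh2d2a, Prcc and Hdgf at higher ones. Their means ran from 0.934 FPKM for Arhgef11 to 245 FPKM for Hdgf, a growth factor. Dclk2, the nearest on its side, was at 8.80 FPKM on average and Etv3 at 20.01 FPKM. None of the 9 tested neighbours passed between 0 and 8 g/kg.

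Partners of CD1d did not pass in the diets either. B2m was at 1575 and 1849 FPKM with the control diet (TALL2, TALL3) and at 1446 and 2181 FPKM without valine. TALL3 was the higher in all 4 diets, with 1532 and 1958 FPKM at 0.8 g/kg and 1451 and 2172 FPKM at 0.4 g/kg. Mttp, the transfer protein that lipidates CD1d in the endoplasmic reticulum, was at 3.62 and 3.50 FPKM with the control diet and at 1.29 to 2.66 FPKM in the other 6 libraries. Each restricted library was thus under both controls, and the log2 difference at 0 g/kg was -0.67 (limma adjusted p = 0.475). Among all tested genes, 22.5%, 31.8% and 22.9% were lower without overlap at 0.8, 0.4 and 0 g/kg, each taken alone. Psap, the precursor of the lipid-transferring saposins, was between 138 and 148 FPKM in all 8 libraries. Of the 26 assembly and loading genes tested, 8 were higher and 3 lower without overlap at 0 g/kg, where 19.1% and 22.9% of all genes were, and 0 passed.

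Of 19 cortical genes 16 were listed in the mouse leukaemias that carry Cd1d1, and their spread between libraries ranged from narrow to wide. Sh2d1a ran from 38.9 to 57.0 FPKM and Tox from 41.3 to 69.9 FPKM over the 8 libraries, and both were picked with their values known. Rag1 was at 11.8 and 62.6 FPKM with the control diet and at 1.75 and 14.2 FPKM without valine. Ptcra, the pre-T receptor chain, was at 10.3 and 70.4 FPKM against 9.48 and 47.5 FPKM in the same groups. Cd8b1, a CD8 chain, was at 60.9 and 84.5 FPKM with the control and at 42.0 and 49.7 FPKM without valine (log2 difference -0.64, limma adjusted p = 0.376). The E protein Tcf12 was at 187 and 199 FPKM against 149.99 and 135 FPKM (log2 difference -0.44, limma adjusted p = 0.298). Of 15 tested cortical genes 0 passed. At 0 g/kg 3 were lower and 0 higher without overlap, where 22.9% and 19.1% of all tested genes were.

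Markers of other cell types were summed in each library of these sorted cells, and none of their genes passed in any diet. The summed level of 2 listed B-cell genes (of 10) was 12.8 and 6.61 FPKM with the control, 3.60 to 10.1 FPKM in the 4 libraries at 0.8 and 0.4 g/kg, and 30.3 and 40.01 FPKM without valine. Over 4 of 14 macrophage and dendritic cell genes it was 7.40 and 15.3 FPKM with the control, 5.08 to 9.09 FPKM in the middle diets and 10.9 and 15.7 FPKM without valine, and the control and valine-free libraries overlapped. MHC class II genes (5 of 7) overlapped too, at 15.4 and 35.1 FPKM, 24.8 to 41.8 FPKM, and 34.2 and 122 FPKM in the same order. The B-cell sums without valine lay above those of the other 6 libraries, as did the neutrophil sums. Neutrophil genes (9 of 9 listed) summed to 0.737 and 8.26 FPKM with the control, 4 of them at 0 in TALL2, to 6.60 to 71.9 FPKM in the middle diets, and to 542 and 302 FPKM without valine. Erythroid genes (6 of 7) went the other way, at 91.0 and 236 FPKM, 23.3 to 45.5 FPKM, and 0.880 and 3.18 FPKM, with 5 of them at 0 in TALL2 at 0 g/kg. Cd79a, a chain of the B-cell receptor, and C1qa, which marks macrophages, were not analysed here, and the part of such cells in the Cd1d1 level was not tested.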

How the data were processed

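The authors deposited FPKM per gene and library in 1 table per species. The submitters' processing notes name STAR, edgeR, hg19 and mm10 without roles; which did what, and the gene model, was not given in the sources used here. Reads and lengths were recovered from whole-number ratios between libraries. Recovered lengths were whole for 95.8% of human and 99.9% of mouse genes, and the reads of a further 489 in human and 13 in mouse were multiplied to make theirs whole, so reads are estimates. Tables were compared only within species. The 6679 human and 9943 mouse genes averaging 1 FPKM or more were log2-transformed after adding 1 and fitted in limma (version 3.58.1, R 4.3.3), allowing the variance to follow the mean. Two-sided p-values were adjusted by Benjamini-Hochberg, and 0.05 was the threshold. All 4 diets shared 1 fit. The fit was also run on simulated reads of independent libraries, without a difference between TALL2 and TALL3. That run does not show how the fit behaves with the spread of the real libraries.

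The members and lists were chosen with earlier results of these data known. From each list, up to 4 passing genes with the largest differences were named, or up to 2 by smallest p, besides preset anchors. Some genes that this rule would name are not reported here. Mouse coordinates and sequences are from GRCm38. Sequences of the human genes were not analysed here. Alternatives covered the pseudocount, filter, scaling, variance trend, replicate block, voom on recovered reads, diets fitted alone, and leaving out each library.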

Additional observations from a re-analysis of the deposited data

How the results depend on the processing

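The human CD1 genes stayed lower with gSI in every alternative run that kept them. CD1A, CD1C and CD1D, averaging 4.67, 3.17 and 1.45 FPKM, had no value where the mean had to reach 5 FPKM. CD1B differed by -3.51 with a pseudocount of 0.1, by -2.33 with one of 5 and by -3.44 with voom on recovered reads. CD1E differed by -3.76 and -3.12 with those pseudocounts and by -3.45 with quantile scaling. CD1D ranged from -0.48 to -0.11. The number of human genes called was 3547, 5374 with no filter, 1139 when the mean had to reach 5 FPKM, and 2207 to 3555 when 1 library was left out, the lowest without gSI replicate 2. It was 1524 higher and 2023 lower as reported, 1787 and 2078 with median-of-ratios scaling, and 1986 and 1849 with quantile scaling.

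Cd1d1 passed in no alternative. With 1 library left out, its difference ran from -0.0096 to 0.12 at 0 g/kg, from -0.38 to 0.10 at 0.4 g/kg and from -0.18 to -0.02 at 0.8 g/kg, and its slope from -0.021 to 0.033. Voom turned the slope to -0.00142. Genes called for the slope were 0 to 2 with 1 library left out: 2 without TALL3 at 0.8 g/kg and 1 without TALL2 at 0.4 g/kg. Leaving out both 0.4 g/kg libraries, an alternative chosen after seeing the data, left 0 called. Single genes also changed sign. B2M was at 0.066 with quantile scaling. At 0 g/kg with 1 library left out, B2m ran from -0.24 to 0.35, Tcf3 from -0.040 to 0.022, Il2ra from -0.56 to 0.013, Ptcra from -1.66 to 0.996, Dtx1 from -0.45 to 0.14 and Cd4 from -1.25 to 3.25. Median-of-ratios scaling put Tcf3 at 9.5e-05. The cause was not tested.

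Replicate numbers were shared across groups. Deviations of same-numbered libraries correlated at 0.258 in KOPTK1. In the mouse, r was 0.743 between 8 and 0.8 g/kg, 0.566 between 8 and 0, 0.425 between 0.4 and 0, and 0.363 between 0.8 and 0. It was 0.059 between 8 and 0.4 g/kg and -0.174 between 0.8 and 0.4. A difference between TALL2 and TALL3 was thus shared by some diets, and the main fits leave it in the spread between libraries. With the replicate block, 3705 human genes were called, CD1B stayed at -3.18 and CD1E at -3.62, and Cd1d1 stayed at 0.06, -0.14, -0.10 and 0.01 with 0 mouse genes called.

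With 2 libraries per group, small differences could not be resolved. Leaving out a library leaves an arm with 1, which is then assumed to vary like the others.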
